A study of Mus musculus with 6 samples.

Results

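ERK, JNK and p38 are the 3 classical groups of mitogen-activated protein kinases (MAP kinases). The genes described are 4 MAP kinases, namely Mapk3 (ERK1), Mapk8 (JNK1), Mapk9 (JNK2) and Mapk14 (p38α), and 4 MAP2 kinases that activate them, namely Map2k1 (MEK1), Map2k2 (MEK2), Map2k4 (MKK4) and Map2k7 (MKK7). They were chosen by name, with no threshold on their values but with earlier results of these data known, and all 8 were present among the 19060 genes counted. Each of the 8 passed the filter on low counts, which left 15826 genes in the test.

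RNA was sequenced in bulk from the proximal incisors of 1-month-old mice, collected 1 week after tamoxifen (TMX). The 3 control samples came from Fgfr1fl/fl mice, which carry loxP sites in both Fgfr1 alleles and no Cre and which the labels call wild type. The 3 mutant samples came from Gli1CreER;Fgfr1fl/fl mice (Gli1-Cre;Fgfr1fl/fl in the labels), where tamoxifen switches on Cre in cells that express Gli1, the mesenchymal stem cells of the incisor among them. The study asked which pathway acts downstream of FGFR1 in these cells. All controls lacked the Cre allele, so the deletion and the presence of Cre cannot be told apart. Cre was driven in Gli1+ cells, whereas the RNA came from the whole proximal tissue. In such bulk RNA, fewer cells of a type and less RNA per cell cannot be told apart.

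MAP kinases stand at the end of a relay in which a MAP3 kinase phosphorylates a MAP2 kinase and the MAP2 kinase phosphorylates the MAP kinase. FGF receptors, which are receptor tyrosine kinases, reach the ERK branch through adaptors, RAS and RAF, whereas the JNK and p38 branches are best known for their response to stress and cytokines. In teeth, FGF signaling to the ERK branch is known for its part in the growth of dental epithelium and mesenchyme. The kinases are switched on by phosphate added to the protein, which RNA counts do not read, so every value below is a transcript level.

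The place of that switch is the activation segment, and its coding bases are shown because they show what each kinase receives from the one above it. The segments run from the codons of the DFG motif to the codons of the APE motif, or of its counterpart ending in a proline and a glutamate, and were read from GENCODE M21 transcripts on GRCm38. In the 4 MAP kinases the capitals mark the threonine codon, the middle codon and the tyrosine codon that a MAP2 kinase recognises, with glutamate in the middle in ERK1, proline in the JNKs and glycine in p38α. In the 4 MAP2 kinases the capitals mark the codons from the first to the last of the residues that a MAP3 kinase phosphorylates.
Mapk3: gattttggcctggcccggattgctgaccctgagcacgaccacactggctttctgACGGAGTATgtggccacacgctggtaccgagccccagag
Mapk8: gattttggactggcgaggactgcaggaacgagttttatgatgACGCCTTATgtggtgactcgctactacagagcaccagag
Mapk9: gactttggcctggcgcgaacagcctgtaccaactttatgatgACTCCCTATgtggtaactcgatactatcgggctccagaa
Mapk14: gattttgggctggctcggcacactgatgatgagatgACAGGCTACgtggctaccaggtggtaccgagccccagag
Map2k1: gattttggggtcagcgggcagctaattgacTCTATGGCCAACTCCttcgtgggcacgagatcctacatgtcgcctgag
Map2k2: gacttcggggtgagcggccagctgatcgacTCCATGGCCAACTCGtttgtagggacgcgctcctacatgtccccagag
Map2k4: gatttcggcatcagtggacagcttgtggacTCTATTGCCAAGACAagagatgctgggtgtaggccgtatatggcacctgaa
Map2k7: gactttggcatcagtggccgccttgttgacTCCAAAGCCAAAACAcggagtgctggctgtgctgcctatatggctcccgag

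All 8 segments are coding. That of Mapk3 lies in exon 4 of 9 at chr7:126763404-126763496 (plus strand), that of Mapk8 in exon 6 of 12 at chr14:33392973-33393053 (minus strand), that of Mapk9 in exon 6 of 12 at chr11:49872788-49872868 (plus strand) and that of Mapk14 in exon 7 of 12 at chr17:28728363-28728437 (plus strand). Each MAP2 kinase segment is split by an intron, which is not printed. Those of Map2k1 (chr9:64191649-64193773, minus strand) and Map2k2 (chr10:81119310-81119495, plus strand) lie in exons 6 and 7 of 11, and those of Map2k4 (chr11:65696360-65707058, minus strand) and Map2k7 (chr8:4244532-4244700, plus strand) in exons 7 and 8 of 11. The JNK segments of Mapk8 and Mapk9 share 61 of 81 bases, those of Map2k1 and Map2k2 63 of 78, and those of Map2k4 and Map2k7 58 of 81. Despite this likeness, no run of 75 bases, the length of the reads, is shared between the transcripts of any 2 of the 8 genes, so whole reads of these transcripts can be assigned to one of them. Map2k7 alone shares runs with another gene, 1153 of its 3423 (33.7%), with the overlapping gene Gm49320 on the same strand, so its counts are less certain.

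The control samples held 32292649, 31060222 and 32712448 counts and the mutant samples 5276557, 11819576 and 11358282. At these depths the 8 genes had between 496 and 4457 counts in a control sample and between 71 and 842 in a mutant sample. The counting error of a single value was thus between 1.498 and 4.49% in the controls and between 3.45 and 11.9% in the mutants. Fgfr1, the deleted gene, had 529, 924 and 434 CPM in the controls and 148, 318 and 262 CPM in the mutants, with no overlap. CPM is here the count divided by the library size after upper-quartile scaling. Its log2 fold change was -1.37 (SE 0.40, unadjusted p = 0.00846, adjusted p = 0.0881, edgeR). It was -0.99 without control 2, and -0.74 with the length and GC correction described below. A gene was called, here and below, where the unadjusted p was under 0.05 and the change over 1.5-fold.

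Of the 8 kinase genes, Mapk3 fell and Mapk8 rose in the Fgfr1 mutant mice, each by about the same factor on the log2 scale (-1.03 and 1.02), and 6 were not called. The call of Mapk8 ended with the length and GC correction and that of Mapk3 did not. Of all 15826 genes, 8.92% were called lower, 10.9% higher and 19.8% in either direction. The 2 calls among 8 genes are therefore near the share of the whole transcriptome. Without the fold threshold, 3 of the 8 were lower at an unadjusted p under 0.05 and 1 higher, beside 9.13% and 11.0% of all genes (20.1% in either direction). At an adjusted p under 0.05, 1 was lower and 0 higher, beside 3.06% and 3.72% of all genes (6.79% in either direction). Control and mutant ranges were separate for 4 of the 8, with Mapk3, Map2k1 and Map2k2 lower and Mapk8 higher in every mutant sample, beside 16.3% of all genes lower, 14.1% higher and 30.4% in either direction. All 3 genes of the ERK branch were thus below the control range in every mutant sample, while the JNK and p38 branch gave 1 gene above its control range and 4 that overlapped. The median log2 fold change of the 8 was -0.34, beside -0.04 for all genes tested. With the length and GC correction the median of the 8 was -0.10, beside -0.03 for all genes in that fit. With total counts only it was -0.62, beside -0.30 for all genes. Leaving out single replicates, it ran from -0.63 to -0.12.

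**Figure D1:**
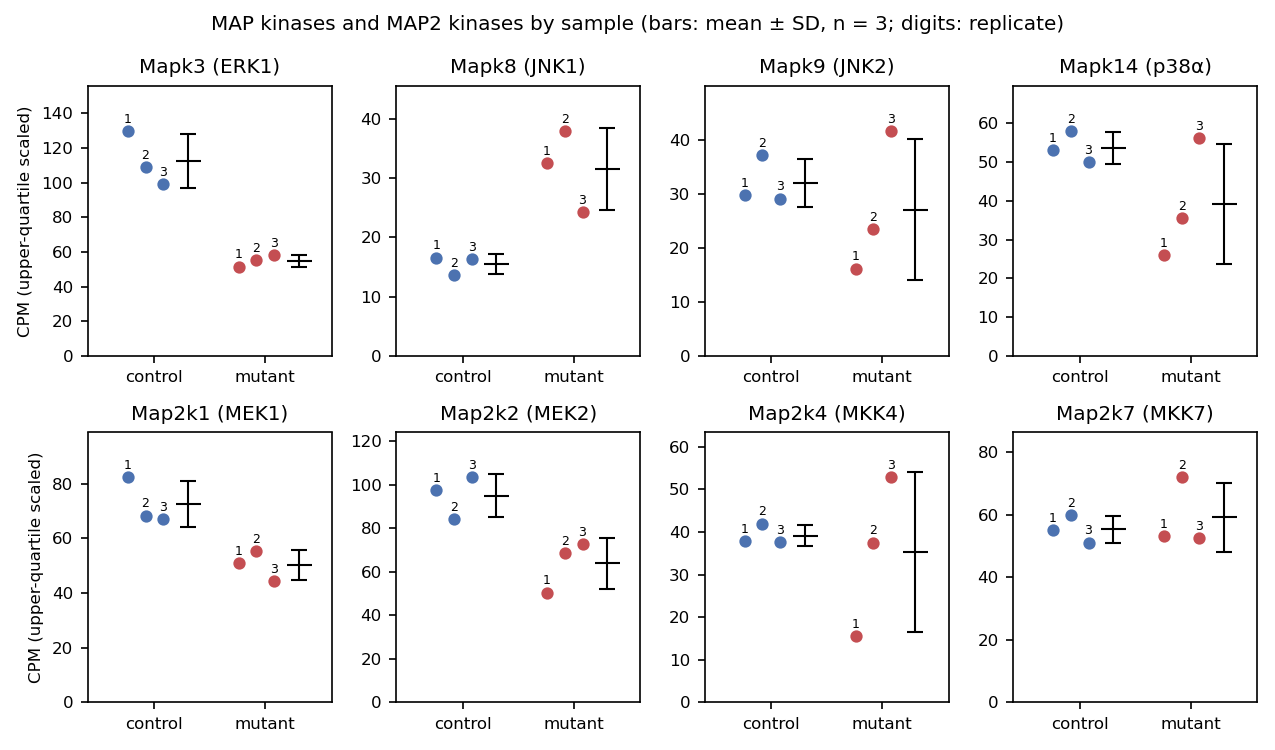
Upper-quartile scaled CPM of the 8 kinase genes in 3 control (blue) and 3 mutant (red) samples, with replicate numbers above the points and bars for the mean ± SD beside them. The mutant points lie below all control points for Mapk3, Map2k1 and Map2k2 and above them for Mapk8, and the mutant points of Mapk9, Mapk14 and Map2k4 are spread with mutant 1 lowest and mutant 3 highest.

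The ERK branch begins with the MAP2 kinases MEK1 and MEK2, the activators of ERK. Map2k1 (chromosome 9, 64185770 to 64253631) had 82.2, 68.3 and 67.0 CPM in the controls and 50.9, 55.3 and 44.3 CPM in the mutants. Every mutant sample was below every control sample. The log2 fold change was -0.53 (SE 0.22), which is 1.45-fold lower and so under the 1.5-fold threshold, at an unadjusted p of 0.0421 (adjusted p = 0.226, edgeR). Map2k2 (chromosome 10, 81105915 to 81133975), its close relative, had 97.5, 84.2 and 103 CPM in the controls and 50.4, 68.6 and 72.7 CPM in the mutants. Here too the groups did not overlap, and mutant 1 was lowest. The log2 fold change was -0.57 (SE 0.23), or 1.49-fold lower, at an unadjusted p of 0.0388 (adjusted p = 0.215, edgeR). Neither MEK gene was called, each missing the fold threshold by a small margin, and scaling by TMM or by total counts only carried both past it. The length and GC correction moved them the other way, Map2k1 to -0.39 and Map2k2 to -0.03, and neither was called.

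Mapk3 (chromosome 7, 126759601 to 126765819) encodes ERK1, the kinase at the end of this branch. It had 129.8, 109 and 99.2 CPM in the controls and 51.5, 55.2 and 58.3 CPM in the mutants. The highest mutant sample was far below the lowest control sample, and the 3 mutants lay close together. The mean was 113 ± 15.7 CPM in controls and 55.0 ± 3.42 CPM in mutants (SD, n = 3), with a log2 fold change of -1.03 (SE 0.21). The unadjusted p was 0.00122 and the adjusted p 0.0458 (edgeR), the lowest adjusted p of the 8. Only 12.7% of all genes tested had a lower log2 fold change. Leaving out single replicates, the gene kept its call in 6 of 6 fits, with a log2 fold change between -1.12 and -0.92, but the adjusted p then ran from 0.0579 to 0.190.

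The JNK branch is driven by MKK4 and MKK7, of which MKK7 is specific to JNK and MKK4 can also activate p38. Map2k4 (chromosome 11, 65688243 to 65788297) had 37.8, 42.0 and 37.6 CPM in the controls and 15.5, 37.5 and 52.8 CPM in the mutants. The control samples were close together and the mutants lay on both sides of them. The log2 fold change was -0.14 (SE 0.42, unadjusted p = 0.740, adjusted p = 0.904, edgeR), and it turned to 0.19 without mutant 1. Map2k7 (chromosome 8, 4238740 to 4247897) had 55.1, 59.8 and 51.1 CPM in the controls and 53.0, 71.9 and 52.6 CPM in the mutants, so that mutants 1 and 3 were within the control range. Its log2 fold change was 0.10 (SE 0.23, unadjusted p = 0.685, adjusted p = 0.877, edgeR). The direction of Map2k7 was not stable, since it was -0.08 without mutant 2 and -0.16 when only total counts were used for scaling.

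Mapk8 (chromosome 14, 33377898 to 33447158) encodes JNK1, a kinase known for phosphorylating the transcription factor Jun. It had 16.5, 13.6 and 16.4 CPM in the controls and 32.5, 37.9 and 24.2 CPM in the mutants. All mutant samples were above all control samples, with mutant 3 nearest to them. The mean was 15.5 ± 1.63 CPM in controls and 31.5 ± 6.91 CPM in mutants (SD, n = 3), with a log2 fold change of 1.02 (SE 0.33). The unadjusted p was 0.0150 and the adjusted p 0.124 (edgeR), so Mapk8 was called by this threshold and did not pass adjustment over all genes. The gene kept its call in 6 of 6 fits with a replicate left out (0.86 to 1.17). Scaling by total counts only gave 0.78, with an unadjusted p of 0.0562, and ended the call. The length and GC correction gave 0.53 and ended it too.

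Mapk9 (chromosome 11, 49846751 to 49886421) encodes JNK2, which overlaps with JNK1 in its substrates. It had 29.7, 37.1 and 29.1 CPM in the controls and 16.2, 23.5 and 41.6 CPM in the mutants, so mutants 1 and 2 were below the controls and mutant 3 above them. The log2 fold change was -0.23 (SE 0.39, unadjusted p = 0.565, adjusted p = 0.818, edgeR), and without mutant 1 it was 0.01. The difference between the changes of Mapk8 and Mapk9 was tested through their share within each sample, which does not depend on the scaling of libraries. Mapk8 made up 35.8, 26.9 and 36.0% of the counts of the pair in the controls and 66.8, 61.8 and 36.8% in the mutants. The groups did not overlap, but the lowest mutant value was hardly above the highest control value. Their 95% exact binomial intervals were 33.05 to 40.6% and 33.6 to 38.4%, which cover counting error only. The mean share was higher by 22.2 percentage points in mutants, with an exact two-sided permutation p of 0.1, the smallest that 3 against 3 samples can give, and 0.4 after adjustment over the 4 shares tested. With the length and GC correction the difference was 12.97 percentage points (exact permutation p = 0.4).

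Mapk14 (chromosome 17, 28691329 to 28748406) encodes p38α, the main p38 kinase of most tissues. It had 53.1, 58.0 and 49.9 CPM in the controls and 26.0, 35.5 and 56.2 CPM in the mutants. Mutants 1 and 2 were below the control range and mutant 3 within it. The log2 fold change was -0.45 (SE 0.32, unadjusted p = 0.196, adjusted p = 0.511, edgeR). Mutant 3 decided the call, since without it the change was -0.81 with an unadjusted p of 0.0262 and the gene passed the threshold.

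For the other 3 shares tested, the control and mutant ranges overlapped. Map2k1 made up 45.8, 44.8 and 39.3% of the MEK counts in controls and 50.2, 44.6 and 37.9% in mutants (exact permutation p = 1.0). Map2k4 made up 40.7, 41.2 and 42.4% of the Map2k4 and Map2k7 counts in controls and 22.6, 34.3 and 50.1% in mutants (exact permutation p = 0.7, adjusted 0.933). The controls were within 2 percentage points of each other while the mutants were spread to both sides. Mapk3 made up 71.0, 65.2 and 66.5% of the Mapk3 and Mapk14 counts in controls and 66.5, 60.8 and 50.9% in mutants (exact permutation p = 0.2, adjusted 0.4).

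**Figure D2:**
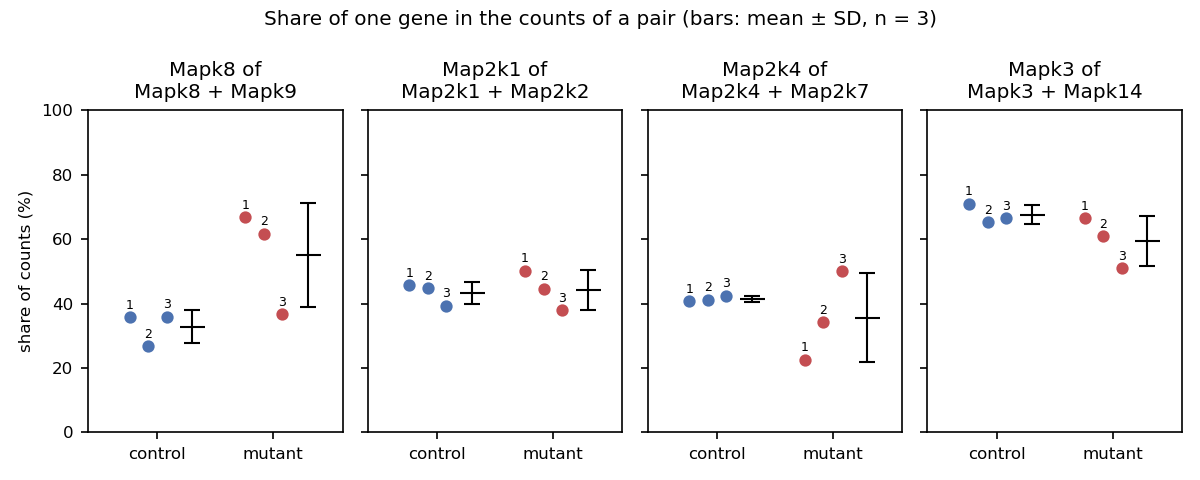
Share of the first gene of each pair in the counts of both, in percent, for 3 control (blue) and 3 mutant (red) samples, with bars for the mean ± SD. Mutants 1 and 2 stand at 66.8 and 61.8% for Mapk8 while mutant 3 (36.8%) is beside the controls, and the control and mutant points of the other 3 pairs overlap.

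Levels of different genes can be compared only per length, and CPM per kilobase of transcript is used for this. In the controls Mapk3 was highest at 62.6 ± 8.70, followed by Map2k2 at 39.5 ± 4.11 and Map2k1 at 29.8 ± 3.46 (SD, n = 3), so the ERK branch held the first 3 places. Then came Map2k7 at 15.8 ± 1.25 and Mapk14 at 15.1 ± 1.15, whose ranges overlapped, and Map2k4 at 10.6 ± 0.664. Mapk9 at 6.84 ± 0.953 and Mapk8 at 5.996 ± 0.630 were lowest and overlapped. In the mutants the same 3 ERK branch genes led, but Mapk3 (30.6 ± 1.90), Map2k2 (26.6 ± 4.93) and Map2k1 (20.6 ± 2.27) were no longer separated from their neighbours. Map2k7 (16.9 ± 3.15) was the only gene clear of the next one below it, and Mapk8 moved from the last place to the fifth at 12.2 ± 2.67. Mapk14 (11.1 ± 4.36), Map2k4 (9.54 ± 5.08) and Mapk9 (5.79 ± 2.80) came after it. These levels carry no length and GC correction. The trend on length and GC content described below differed between mutants and controls by 0.51 for Mapk8 on the log2 scale. It differed by -0.42 for Mapk14, 0.04 for Map2k4 and -0.07 for Mapk9.

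**Figure D3:**
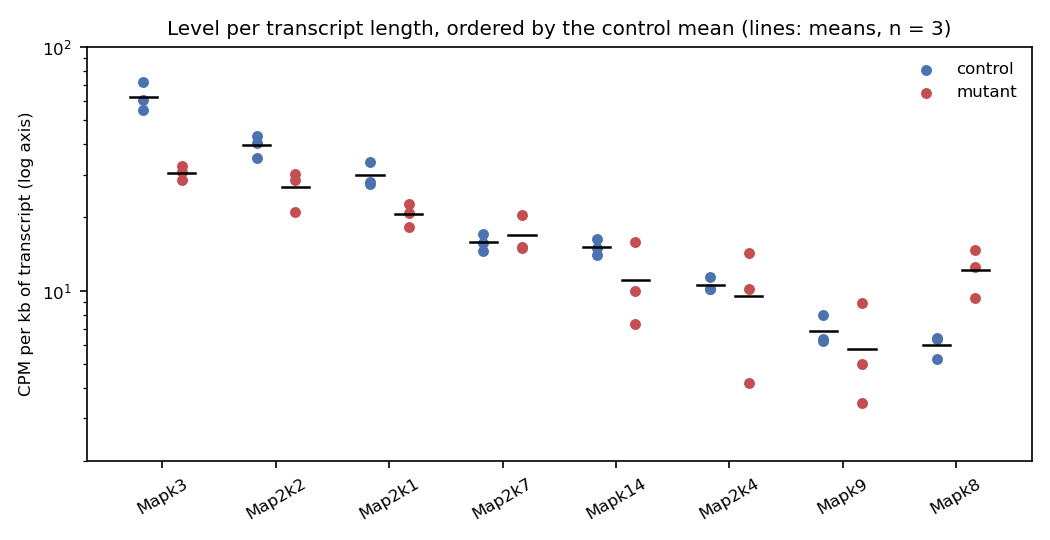
CPM per kilobase of transcript (log axis) of the 8 kinase genes in control (blue) and mutant (red) samples, with black lines at the means and genes ordered by the control mean. Mapk3 falls from a control mean of 62.6 to a mutant mean of 30.6, near Map2k2 at 26.6, and Mapk8 goes from 5.996 to 12.2. The levels are drawn without the length and GC correction.

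Depth, RNA composition and cell makeup also differed between the groups, and these values stand beside all results above. As given above, the mutant samples were sequenced less deeply. The counts from 13 mitochondrially encoded genes made up 0.748, 0.715 and 0.733% in controls and 6.64, 4.29 and 5.67% in mutants, so this part was higher in each mutant sample. The samples also differed in how counts depended on transcript length and GC content, so the fit was repeated with a smooth trend on both removed from each sample. At the length and GC content of Mapk8 (2587 bases, 41.9% GC) the trend alone was 0.51 higher in mutants on the log2 scale, and for Map2k7 (3497 bases, 56.0% GC) and Map2k2 (2405 bases, 60.4% GC) it was -0.56 and -0.54. With the correction, Mapk3 was called lower (-0.83, SE 0.18, unadjusted p = 0.00173, adjusted p = 0.0735, edgeR), where 7.13% of all genes were called lower. Mapk8 was at 0.53 (SE 0.30, unadjusted p = 0.125, adjusted p = 0.511, edgeR) and was no longer called. Map2k7 was called higher instead (0.65, SE 0.19, unadjusted p = 0.00947, adjusted p = 0.124, edgeR), where 6.87% of all genes were. Map2k1 was at -0.39, Map2k2 at -0.03 and Mapk14 at -0.01. Of the 8 genes, Mapk3 was thus the one that was called with and without the correction.

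**Figure D4:**
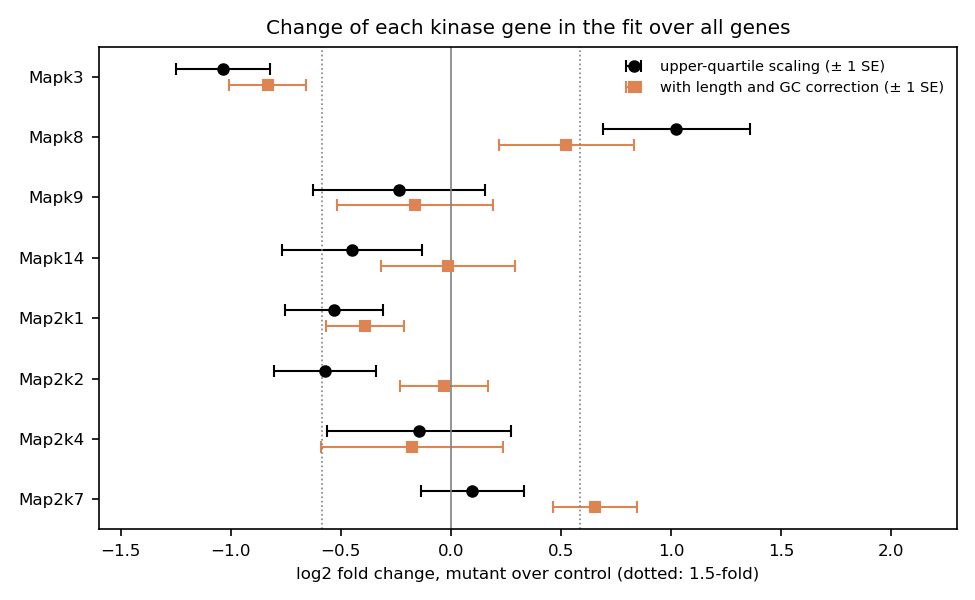
Log2 fold change (mutant over control, ± 1 SE) of each kinase gene with upper-quartile scaling alone (black circles) and with the length and GC correction (orange squares), with dotted lines at 1.5-fold. Mapk3 lies beyond the lower line in both fits (-1.03 and -0.83), while Mapk8 drops from 1.02 to 0.53 and Map2k7 moves from 0.10 to 0.65.

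Markers of the labelled tissue were present in every sample. The 11 dental mesenchyme markers summed to 28230, 66588 and 32957 CPM in the controls and 30323, 23055 and 29594 CPM in the mutants, with Col1a1 the most abundant and 2 of 11 called lower. The 9 dental epithelium markers summed to 85342, 97133 and 121080 CPM in the controls and 33723, 31643 and 69776 CPM in the mutants. The epithelial sums were thus lower in every mutant sample, although 0 of 9 genes were called, and Amelx, the most abundant and the main enamel matrix protein, averaged 59345 and 25371 CPM. Skeletal muscle markers, led by Acta1, summed to 8.30, 2626 and 27.6 CPM in controls and 6189, 135 and 1012 CPM in mutants (0 of 7 called), which is a spread between samples of both groups. Erythroid markers, led by Hbb-bs, summed to 823, 822 and 380 CPM in controls and 1289, 926 and 2559 CPM in mutants (2 called higher and 1 lower of 5). None of the 6 odontoblast (led by Bglap), 6 macrophage (Lyz2), 5 endothelial (Cdh5) and 4 tested of 5 Schwann cell markers was called. The Bglap set summed to 9577, 13329 and 5810 CPM in controls and 8294, 11049 and 9374 CPM in mutants, the Lyz2 set to 416, 419 and 144 and to 395, 325 and 371 CPM, and the Cdh5 set to 146, 243 and 153 and to 126, 134 and 118 CPM. With the length and GC correction, 3 of the 9 epithelial markers were called lower, Amelx among them (-2.18), and 1 higher. In the same fit 1 of the 6 odontoblast markers was called higher and 1, Bglap, lower (-1.07, compared with 0.24 uncorrected), 1 mesenchymal marker was called higher and 1 erythroid marker lower, and no marker of the other cell type lists was called. No marker was at 0 in all samples. The part of these cell types, of depth and of the mitochondrial share in the changes of the kinase genes was not tested.

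Around the 8 kinases, 7 lists gave 107 further genes of the 3 pathways, of which 104 could be tested. Of these, 2 rose (1.92%) and 13 fell (12.5%) by this threshold, beside 10.9% and 8.92% of all genes. After adjustment over all genes tested, 0 were higher and 2 lower (edgeR), namely Mapk8ip2 and Dusp4, which had 0 counts in every mutant and passed the filter on low counts only through the more deeply sequenced controls. With the length and GC correction 4 rose and 5 fell. Among the genes named below, Crkl, Arrb1, Tab2, Mapkapk2, Mknk2, Rps6ka1, Rps6ka2, Elk1 and Ets2 lost their call with that correction.

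Upstream of the MAP2 kinases, 1 of 17 genes of RAS and its adaptors fell and none rose (median log2 fold change -0.09). That gene was Crkl, an adaptor of receptor tyrosine kinases, with a log2 fold change of -0.98 (SE 0.36, unadjusted p = 0.0261). Among 20 RAF and MAP3 kinases (median -0.46), Map3k7 (TAK1), a MAP3 kinase of the JNK and p38 branches, fell (-0.65, unadjusted p = 0.0435), and Map3k20 (ZAK), a stress-activated MAP3 kinase, rose (0.86, unadjusted p = 0.0272). The calls of Crkl, Map3k7 and Map3k20 were each lost in 3 or more of 6 fits with a replicate left out.

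Beside the kinases, none of the 11 tested genes of the other MAP kinases and MAP2 kinases was called (median -0.59), and the remaining 2 of this list, Mapk4 and Mapk15, which were chosen after their values were seen, had 0 counts in every mutant and too few counts for the test. Of 16 scaffold genes, 3 fell and none rose (median -0.38). Arrb1, a β-arrestin that holds RAF, MEK and ERK together, fell (-1.01, SE 0.26, unadjusted p = 0.00501). Mapk8ip2, a scaffold of the JNK branch, had 41, 28 and 24 counts in the controls and 0 in each mutant, which is at least 7.72-fold lower when the mutants are set to a floor of 3 counts over the group. DESeq2 did not call Mapk8ip2. Tab2, a partner of TAK1 chosen here after its value was seen, was the third (-0.65, unadjusted p = 0.0255).

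Among 14 MAP kinase phosphatases, which switch MAP kinases off, 1 fell and none rose (median 0.04). Dusp4, a nuclear phosphatase of ERK and JNK, had 44, 52 and 51 counts in controls and 0 in each mutant, at least 12.2-fold lower at the same floor, so the 1 call of this list rests on a gene that passed the filter through the controls alone. Dusp4 and Mapk8ip2 were low in the controls too, at 1.39 and 0.886 CPM. Dusp6, the ERK phosphatase that FGF signaling induces, was chosen after its values were seen and had 26.7, 23.4 and 24.8 CPM in controls and 47.4, 26.6 and 27.4 CPM in mutants. Its groups overlapped and it was not called (0.43, SE 0.33, unadjusted p = 0.227).

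Downstream, 4 of the 10 kinases that ERK or p38 phosphorylate fell and none rose (median -0.70). Mapkapk2 (MK2), the main p38 target kinase, had 113, 109 and 129 CPM in controls and 49.98, 75.8 and 51.6 CPM in mutants, so the groups were far apart. Its log2 fold change was -0.99 (SE 0.24, unadjusted p = 0.00352, adjusted p = 0.0508). Mknk2 (MNK2), a kinase of the translation factor eIF4E, fell by 0.93 on the log2 scale (unadjusted p = 0.00782), and the remaining pair, chosen after their values were seen, were the RSK kinases Rps6ka1 (-1.23) and Rps6ka2 (-1.55). None of the 4 was called with the length and GC correction.

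Among 16 transcription factor substrates, 1 rose and 2 fell (median -0.18). Atf1, a factor of the CREB family, rose from 32.9, 28.8 and 29.9 CPM in controls to 83.2, 64.5 and 40.2 CPM in mutants (log2 fold change 1.03, SE 0.31, unadjusted p = 0.00983), and was called with the correction as well (0.74). Elk1, an ERK target that acts with serum response factor, had 30.2, 11.5 and 14.7 CPM in controls and 5.02, 3.33 and 7.96 CPM in mutants. Elk1 fell (-1.79, SE 0.61, unadjusted p = 0.0191), but lost its call without control 1. Ets2, an ETS factor that ERK phosphorylates, fell (-0.72, unadjusted p = 0.0189) and lost its call in 3 of 6 fits with a replicate left out. Jun, the substrate after which JNK is named, was chosen after its values were seen. It had 33.6, 44.5 and 29.1 CPM in controls and 17.5, 21.6 and 34.1 CPM in mutants, which overlapped (-0.55, unadjusted p = 0.160).

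**Figure D5:**
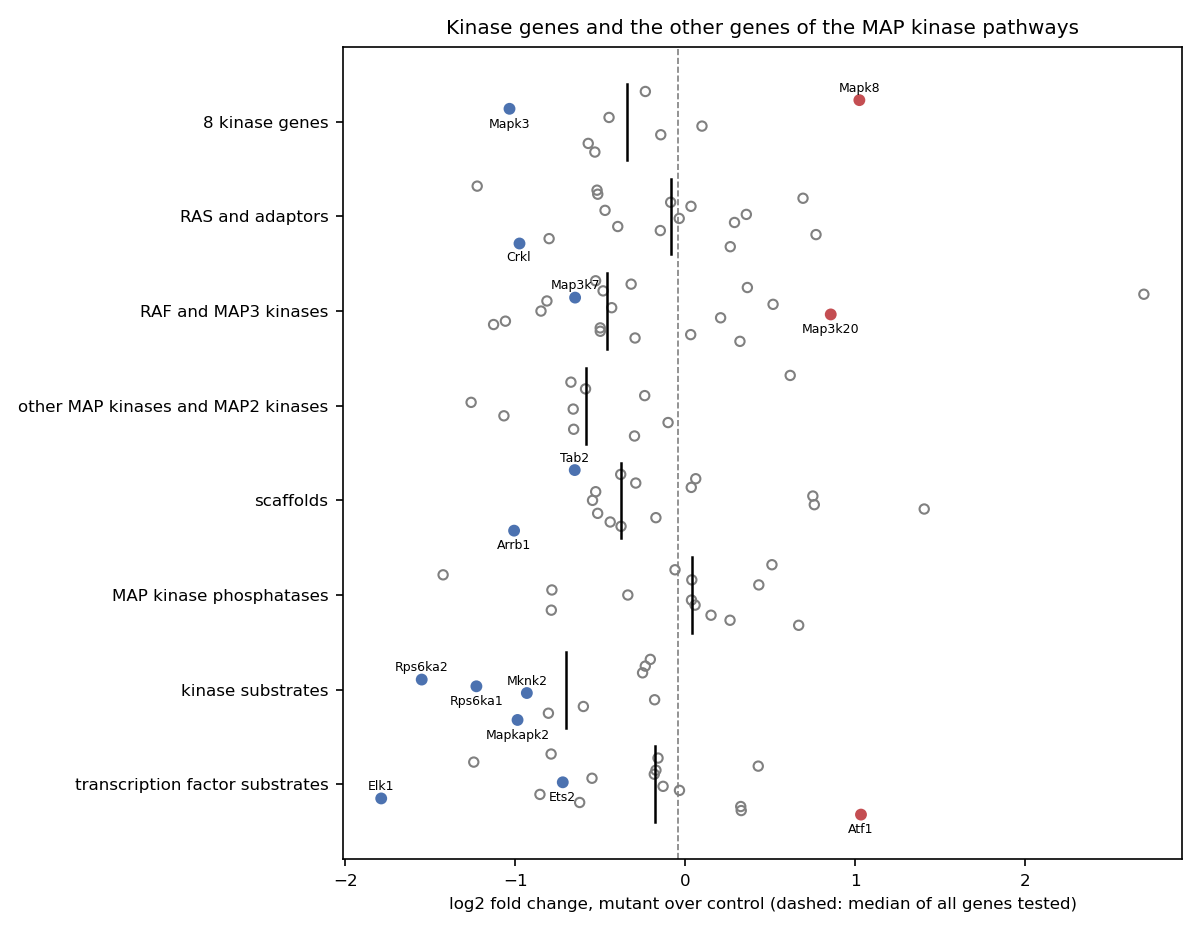
Log2 fold change of the 8 kinase genes and of the 7 lists of other pathway genes, with called genes filled and named (red higher, blue lower), open circles for genes not called, black lines for the list medians and a dashed line for the median of all genes (-0.04). Mapk8ip2 and Dusp4, at 0 in all mutants, and genes not reported here are not drawn, and the kinase substrates have the lowest median (-0.70).

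The gene whose levels over the 6 samples were most like each kinase was sought among the other kinases and the lists (111 candidates), by the root mean square difference of log2 CPM centred on the gene's mean. Mapk9 and Mapk14 were each other's nearest at 0.13, and both had mutant 1 lowest and mutant 3 highest among the mutants. Map2k1 was nearest to Shc1 (0.13), an adaptor of receptor tyrosine kinases, Map2k2 to Map3k7 (0.16) and Mapk3 to Mapkapk2 (0.26), with Map2k1 (0.28) the nearest kinase of the 8. Mapk8 was nearest to Atf1 (0.21), while the nearest kinase of the 8 was Map2k7 at 0.50, the largest such distance among them. Map2k4 was nearest to Elk4 (0.20) and Map2k7 to Atf2 (0.20). These distances describe 6 samples of 2 groups and carry no test.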

How the data were processed

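The 6 samples were grouped by the labels. The authors aligned single reads to mm10 (GRCm38) and deposited estimated counts per gene, not normalized. The submitters' processing notes name TopHat2 2.0.8, and the counting model and strand setting are not given in the sources used here. A second deposited table holds the comparison made by the authors (p-values, ratios, fold changes, group means), which was not used.

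Counts were rounded and tested with edgeR 4.0.16 in R 4.3.3 (upper-quartile scaling, filterByExpr with a minimum of 10 counts and 15 in total, no covariate beside genotype, two-sided quasi-likelihood test, Benjamini-Hochberg adjustment over 15826 genes). SEs are approximate and were derived from the F statistic. The filter, scaling or test was replaced in turn (DESeq2 1.42.0 among them), the replicate number was added as a block, and each replicate was left out. The length and GC correction was a smooth trend per sample (mgcv 1.9.3, fitted on coding genes averaging 50 counts or more), centred and used as an offset over 15726 genes. Lengths, GC content and positions came from GENCODE M21 on GRCm38, where 18637 symbols matched directly, 216 by synonym and 207 not at all. The test was checked on simulated counts with 200 changed genes and the same dispersion for every gene. At an adjusted p under 0.05 it recovered 47% of the 2-fold and 96% of the 4-fold changes, with 11 false calls.

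The kinases and lists were chosen with earlier results of these data known. Named were the 8 kinases, Fgfr1, up to 2 genes that rose and 2 that fell of each pathway list with the smallest p, each kinase's nearest gene, and the most abundant gene of each cell type list. Genes named outside this rule are marked, and some that it selects are not reported here. Nothing in the labels says that replicates are separate mice, so p-values measure the spread between these samples. Samples of a group differed far beyond sampling noise. A count of 0 allows up to 3 counts, or 0.655 CPM in mutant 1 and 0.0867 CPM in control 3, for counting error only.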

Additional observations from a re-analysis of the deposited data

How the results depend on the processing

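Of 276 values recomputed with all 6 samples, 219 kept their direction and their side of the threshold or stayed within their spread. The cause of the changes below was not tested. Scaling moved the median log2 fold change of all genes from -0.04 to -0.13 with TMM and -0.30 with total counts only. With TMM, 3 kinase genes were called lower, as Map2k1 (-0.62) and Map2k2 (-0.66) joined Mapk3. With the size factors of DESeq2 in edgeR, and in DESeq2 itself, 2 were, as Map2k2 joined (-0.60 in each). With total counts only, 0 kinase genes were called higher and 3 lower (Mapk8 0.78, Map2k1 -0.79, Map2k2 -0.83, Map2k7 reversed at -0.16), the median of the 8 was -0.62, 1 pathway gene was called higher, and 2335 of all genes lower, compared with 1411. Without a filter on low counts 2483 genes were called lower. The number of genes with an adjusted p under 0.05 was 1074, and it was 229 without a filter and 370 with a mean of at least 50 counts, where the adjusted p of Mapk3 was 0.0654 and 0.0533. With the length and GC correction it was 134, with 1081 genes called higher compared with 1726, 4 pathway genes higher and 5 lower. There the adjusted p of Mapk3 was 0.0735, the median of the 8 was -0.10, Mapk8 was at 0.53, Map2k7 at 0.65, and the share of Map2k1 in the MEK pair reversed from 0.956 to -5.95 percentage points.

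The replicate numbers shared by the groups did not pair the samples: deviations of same-numbered samples correlated at 0.0472, 0.00937 and 0.0548. With the replicate number as a block, 508 genes had an adjusted p under 0.05 and that of Mapk3 was 0.0606. The block ended the calls of Dusp4 and Mapk8ip2, whose unadjusted p rose to 0.0604 and 0.0913 (edgeR). With the block and the length and GC correction together, 109 genes did, the adjusted p of Mapk3 was 0.210, 798 genes were called higher and 790 lower, 4 pathway genes higher and 7 lower, with Mapk8 at 0.50 and Map2k7 at 0.65.

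With each replicate left out in turn, between 1 and 3 kinase genes were called lower, between 1 and 5 pathway genes higher and between 7 and 21 lower. Of all genes, between 776 (without control 3) and 2826 (without mutant 2) were called lower, and between 76 (without control 3) and 606 (without mutant 1) had an adjusted p under 0.05. The adjusted p of Mapk3 ran from 0.0579 to 0.190, and the median of the 8 from -0.63 without mutant 3 to -0.12 without mutant 1. The ranges were -0.70 to 0.00898 for Mapk9, -0.81 to -0.24 for Mapk14, -0.62 to -0.43 for Map2k1, -0.69 to -0.44 for Map2k2, -0.57 to 0.19 for Map2k4 and -0.0789 to 0.16 for Map2k7. The share of Map2k1 changed by between -2.03 and 4.13 percentage points and that of Map2k4 by between -13.0 and 0.733. Depth limits the mutants most: the lowest kinase count was 71, in a mutant sample.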
